A study of Mus musculus with 18 samples.

Results

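Among the mRNA isoforms of mouse myotubes, 1135 of 11301 distinct isoforms (651 loci) were annotated transcripts whose 5′ leader holds contained upstream reading frames. The rule used no TE or half-life value. An isoform was taken when the deposited annotation class calls it an annotated transcript, its gene is nuclear, its 5′ untranslated region (5′ UTR, here the leader) is longer than 30 nt, and the leader holds at least 1 upstream AUG, each followed by an in-frame stop codon before the main start codon. The polysome table held 786 of them among 7123 isoforms and the decay table held 620 among 6636, with 271 in both. They made up 25.4% of the 3090 annotated nuclear isoforms with a leader over 30 nt in the polysome table and 21.6% of 2869 in the decay table. At the edge of the length rule, the shortest leader kept was 32 nt, and 2 further polysome isoforms and 3 further decay isoforms had contained frames in leaders of at most 28 nt.

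Isoforms were read with TIF-seq2, which sequences both ends of each mRNA molecule together. The cells were primary gastrocnemius myoblasts of wild-type female mice, fused into myotubes for 24 h in the presence of 1 µM SCH772984, an inhibitor of the ERK kinases that all groups received. Polysome gradients of 10 to 50% sucrose, loaded after 5 min with 100 µg/ml cycloheximide, were split into a heavy fraction (6 or more ribosomes), a light fraction (2 to 5 ribosomes) and a ribosome-free fraction, with the same 2 mice in each fraction. In the decay assay, RNA was collected 0, 3, 6 and 12 h after 7.5 µg/ml actinomycin D, which blocks transcription, with the same 3 mice at each time. The age of the mice was not given in the labels.

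Each table gives 1 coverage count and 1 derived value per isoform, named TE (translation efficiency) for the 6 polysome libraries and half-life for the 12 decay libraries, with the libraries pooled. No spread between mice can therefore be given. Every interval printed is the 95% order-statistic interval of a median over isoforms, or over loci for pairs, and isoforms of 1 locus share most of their sequence. TE has no stated unit and is written here multiplied by 1000. The half-life has no stated unit either, and the sampling times were in hours. Isoforms entered the comparisons of TE and half-life with a coverage of at least 30, a value above 0 and both UTR sequences, which left 458 of the 786 in the polysome table (360 loci) and 491 of the 620 in the decay table (392 loci). Coverage below 30 was the most frequent reason for leaving one out, at 326 and 122 isoforms. The isoforms with contained frames carried 9.76% of the polysome coverage of 1601919 and 6.02% of the decay coverage of 3121491. In bulk RNA, fewer cells that express an isoform and less of it per cell cannot be told apart. The deposited tables name no gene. Symbols were given to 686 of the 1135 isoforms, for 370 genes, by matching the start of the leader to RefSeq promoter windows or by a shared locus. Of 12 myotube marker genes 8 were found among the named isoforms of each table, with a summed coverage of 115651 and 188563, and none of 5 fibroblast, 2 endothelial and 3 macrophage genes was found, although a gene without a leader match could not be found by this route.

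A ribosome that loads at the cap scans the leader from the 5′ end and can start at an upstream AUG before it reaches the main one. How often it starts depends on the bases around the AUG, known as the Kozak context, in which a purine at the third base before the AUG and a G right after it favour a start. After the upstream stop, the small ribosomal subunit may resume scanning and start again downstream, or leave the mRNA, and a stop codon far from the end of the message can also expose it to nonsense-mediated decay.

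The sequences of short frames show the range of what such leaders hold. The frames below come from isoforms with coverage of at least 200 in both tables, except that of Myog, and are written from AUG to stop with T for U. Capitals mark the start and the stop codon.
Slc39a7: ATGTAA
Tbrg4: ATGTAG
Myog: ATGTAA
Cacnb1: ATGcgcTGA
Klhdc3: ATGttcctgTAA
Mrps21: ATGaagattTAA
Tmc6: ATGtaccctTAA
Mrpl37: ATGgcggcgtccaggTAG
Popdc2: ATGtatgctgtttgcTAA
Fis1: ATGgagactgtggcccagTAG
Rbm38: ATGcgccggccggctcggTAG
Ntmt1: ATGaaaggcagcagtcctagcTGA
Ncaph2: ATGgcgccagaaccagtagcgggtTGA
Bad: ATGagggattgggaagatttggggagtTGA
The frames of Slc39a7, Tbrg4 and Myog are the shortest possible, a start codon followed at once by a stop. The 6 bases before an upstream AUG, the AUG and the base after it are shown next for frames of each context class. Capitals mark the base at position -3, counted back from the A of the AUG, and the AUG with the base at position +4.
Fis1: tggAccATGG
Mrpl37: gcaAagATGG
Hspbp1: gtaAagATGG
Hyal2: accAggATGG
Traf7: ggcAagATGA
Map7d1: ggcGggATGC
Cav3: gaaGttATGC
Cacnb1: tctCccATGC
Rbm38: cccCgcATGC
Aldoa: atcTagATGT
The contexts of Fis1, Mrpl37, Hspbp1 and Hyal2 are strong, with a purine at -3 and a G at +4. Those of Traf7, Map7d1 and Cav3 are adequate, with 1 of these features, and those of Cacnb1, Rbm38 and Aldoa are weak, with neither.

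One property of the deposited leader sequences bears on all that follows. Where the 5′ end lay upstream of the annotated end, the extra bases often occurred again further down the leader. Among polysome isoforms with contained frames whose end lay at least 12 nt upstream, 107 of 193 carried their first bases again, as did 75 of 124 in the decay table. Among annotated isoforms whose end lay at or inside the annotated end, the first 12 nt occurred again in 2 of 1961 (polysome) and 2 of 1857 (decay). Such leaders are not all free of repeats. A Tnni1 leader of 1693 nt with its end inside the annotated end (decay coverage 24, below the minimum set for comparisons) holds the same 3-codon frame at bases 153, 596, 1021 and 1420. Pairs of isoforms of 1 locus measured the same property. Of 103 polysome pairs with ends upstream of the annotated end, 52 gained 2 or more whole nt of leader per nt of 5′ end. Of 266 pairs with ends at or inside it, 0 did. The cause was not tested. Removing the repeated bases left 93 of the 107 in the class, moved 12 to the class with an AUG lacking a stop and 2 to the class without an AUG, and brought in 24 others. The main results are therefore also given for isoforms with the 5′ end at or inside the annotated end, 483 in the polysome table (280 used) and 398 in the decay table (313 used).

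The 1135 isoforms had 1041 distinct leaders with 2358 upstream AUGs, which ended at 1929 distinct stops. Each stop with its first AUG is counted as 1 frame. A single frame was present in 589 leaders (56.6%), a pair in 257 (24.7%), 3 in 102 (9.80%) and 4 or more in 93. In 238 leaders (22.9%) frames of different register overlapped. Frames were short, with a median of 13 codons before the stop (lower quartile 6, upper quartile 24). Of all frames 43.2% had at most 10 codons, 60 had only the start codon, and 10 had over 100. The stop was TGA in 53.1%, TAG in 26.6% and TAA in 20.2%. In the leaders with ends at or inside the annotated end, 650 leaders held 1207 frames with the same median of 13 codons, and 58.9% of leaders had 1 frame.

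Frames lay along the whole leader. The rule keeps AUGs whose stop falls before the main start, so it leaves out AUGs close to that start. The first base of the AUG was at a median of 114 nt from the 5′ end, 63.7% of frames had it nearer to the 5′ end than to the main start, and 59 AUGs lay within 3 nt of the 5′ end. Between the stop and the main start codon the median distance was 102 nt, and 180 frames stopped within 15 nt of it. Frames covered a median of 28.6% of the leader. The register of the main reading frame was used by 32.3% of frames. An AUG within 3 nt of the 5′ end has no base at -3 and was counted as lacking the purine. A strong context was found for 455 frames (23.6%), an adequate one for 925 (48.0%) and a weak one for 549 (28.5%). A purine at -3 preceded 57.2% of the upstream frames, against 83.6% of the main start codons of the same leaders. With ends at or inside the annotated end these shares were 56.2% and 84.2%.

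**Figure D1:**
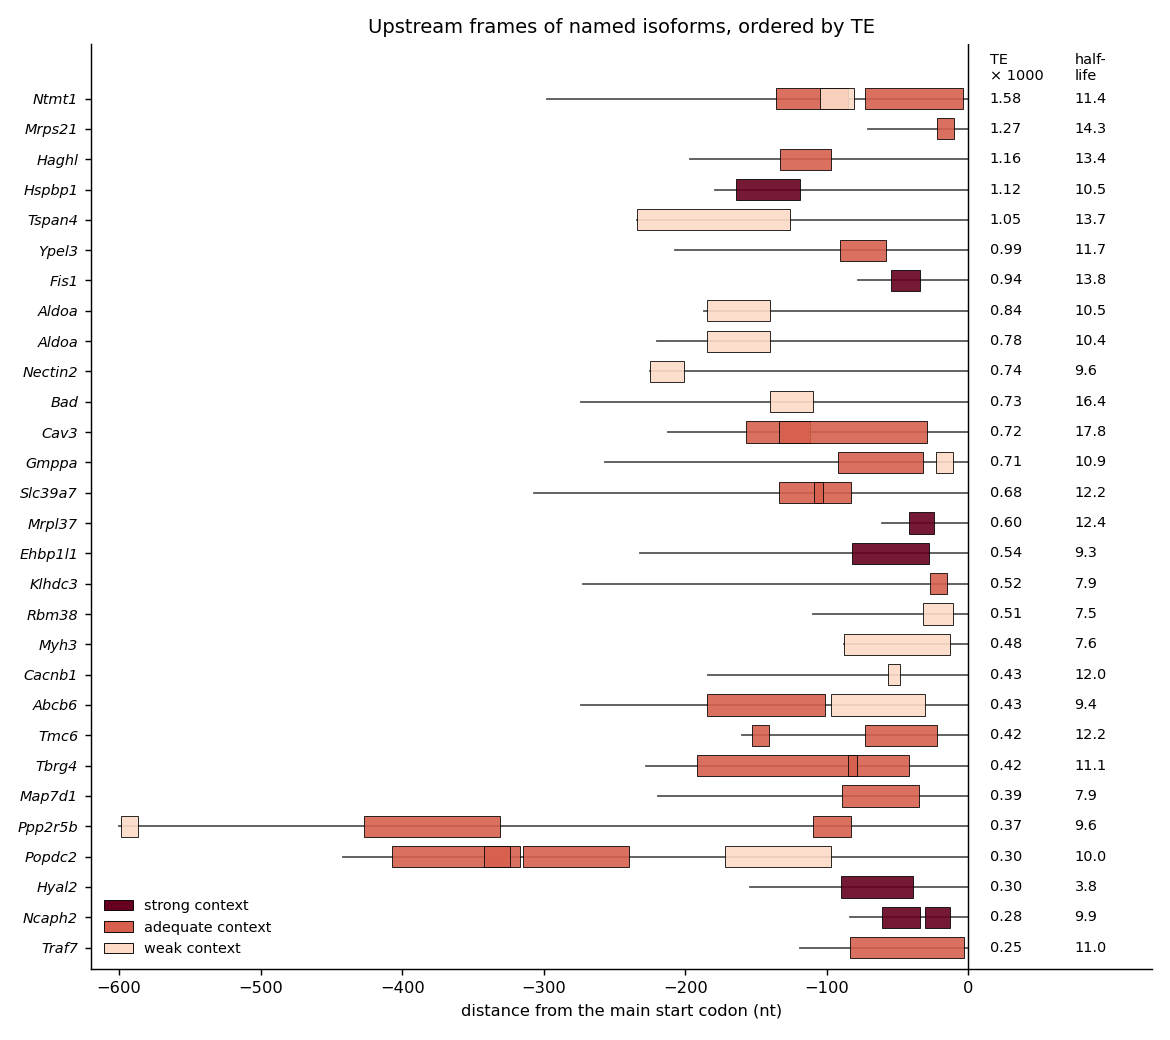
Position of the upstream frames in the leaders of named isoforms, ordered by TE. Shown are 27 isoforms with coverage of at least 200 in both tables, with Myh3 and Hyal2. All have the 5′ end at or inside the annotated end. The horizontal axis is the distance from the main start codon in nt, lines are leaders and boxes are frames from AUG to stop, coloured by context. TE (deposited value times 1000) and half-life are printed at the right, from 1.58 for Ntmt1 at the top to 0.246 for Traf7 at the bottom.

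Isoforms with contained frames had a lower TE than annotated isoforms without an upstream AUG. The median was 0.599 (0.569 to 0.640, n = 458) with contained frames and 0.810 (0.784 to 0.843, n = 1083) without an upstream AUG, a log2 difference of -0.43. Isoforms with an upstream AUG that has no stop in the leader lay between, at 0.672 (0.623 to 0.714, n = 337), and their interval overlapped that of the contained class. With ends at or inside the annotated end the medians were 0.568 (0.528 to 0.609, n = 280) with contained frames and 0.792 (0.752 to 0.825, n = 755) without an upstream AUG. With ends upstream of it they were 0.659 and 0.877. Most isoforms of the class, 321 of 458 (70.1%), were below the median of those without an upstream AUG, so the distributions overlapped widely.

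The spread within the class was large beside this difference. The SD of log2 TE was 0.75 with contained frames and 0.74 without an upstream AUG, and the 95th percentile of the class (1.39) was 5.24-fold its 5th percentile (0.266). Between isoforms of 1 locus the spread was smaller. In the 80 loci with 2 or more isoforms of the class (178 isoforms), the SD of log2 TE within loci was 0.43, and between near-identical isoforms of any class, under 20 nt apart at the 5′ end, it was 0.27 (15 pairs).

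Half-lives were close between the classes. The median was 10.6 (10.4 to 11.0, n = 491) with contained frames and 10.9 (10.7 to 11.1, n = 1487) without an upstream AUG, a log2 difference of -0.03, and the intervals overlapped. With ends at or inside the annotated end the medians were 10.4 (9.89 to 10.7, n = 313) and 10.9 (10.6 to 11.1, n = 1023), and the intervals overlapped narrowly. With ends upstream of it, the contained class was at 11.4 and the class without an upstream AUG at 11.0. In the class 265 of 491 (54.0%) fell below the median of isoforms without an upstream AUG. The half-lives of 163 isoforms exceeded the last sampling time of 12 h if read in hours, and 2 exceeded 100, which were those of Arhgdib (3825.31) and Smyd1 (1159.18). Such values lie far beyond the times sampled. The SD of log2 half-life was 0.72 with contained frames, the 2 values over 100 included, and 0.50 without an upstream AUG. Within the 82 loci with 2 or more isoforms of the class (181 isoforms) it was 0.82. No half-life was left out of this SD for its size, and the part of the largest values in it was not tested. Near-identical isoforms differed more in half-life than in TE, with an SD of 0.66 on the log2 scale (23 pairs). Small half-life differences between classes are thus set against a large spread between near-identical isoforms.

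**Figure D2:**
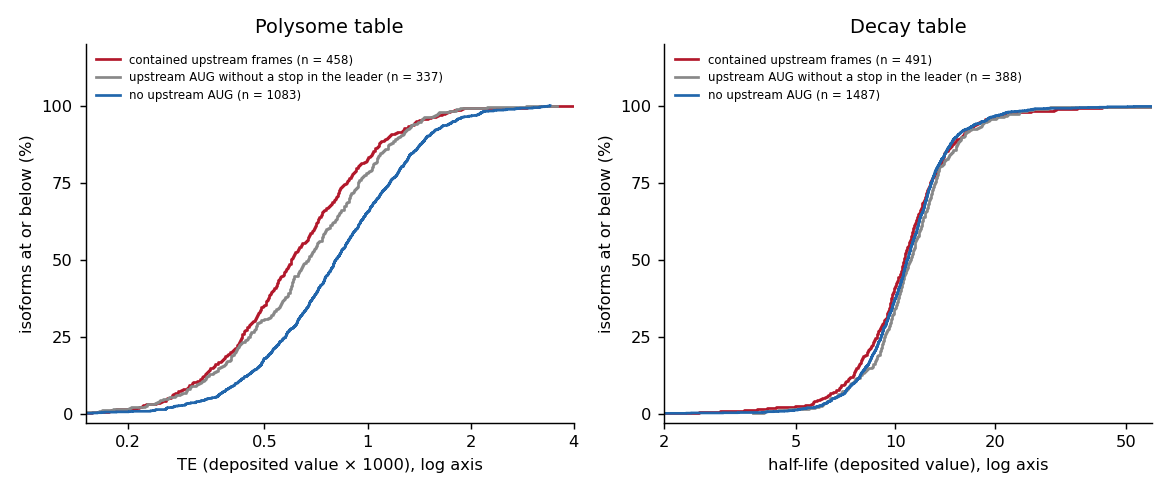
Cumulative share of isoforms (percent) at or below a given TE (left, deposited value times 1000) or half-life (right, deposited value), both on log axes, for isoforms with contained frames, with an upstream AUG lacking a stop in the leader, and without an upstream AUG. The TE curve of the contained class lies left of the curve without an upstream AUG (medians 0.599 and 0.810), and the half-life curves nearly coincide (medians 10.6 and 10.9).

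The rule favours long leaders, and in the polysome table the median leader was 230 nt with contained frames and 88 nt without an upstream AUG. The classes also differed in features the rule did not use, and the median 3′ UTR was 386 nt with contained frames and 322 nt without an upstream AUG. Leader GC content was 61.5% with contained frames and 65.1% without an upstream AUG, and median coverage was 90 and 131. A purine at -3 of the main start codon was present in 80.6% of the class and in 90.5% of isoforms without an upstream AUG. Leaders that begin as a TOP motif, the pyrimidine start of mRNAs for ribosomal proteins, made up 3.93% and 7.39%. The part of these features in the TE difference was examined only for the lengths.

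At matched leader length the median TE of the contained class was lower in each of 6 length bins, by amounts that varied. For leaders over 100 and up to 150 nt it was 0.528 (0.497 to 0.686, n = 67) with contained frames and 0.816 (0.744 to 0.913, n = 228) without an upstream AUG. In this leader bin alone the intervals were apart, and in all other leader bins they overlapped. For leaders over 200 and up to 300 nt it was 0.661 (0.591 to 0.731, n = 122) and 0.704 (0.619 to 0.795, n = 91), with overlapping intervals. The log2 difference ran from -0.63 to -0.09, and the bin above 400 nt held only 8 isoforms without an upstream AUG. At matched 3′ UTR length the intervals were apart in all 4 bins. With 3′ UTRs of up to 150 nt the medians were 0.752 (0.609 to 0.871, n = 91) and 1.13 (1.03 to 1.20, n = 284), and above 800 nt they were 0.426 (0.356 to 0.479, n = 89) and 0.543 (0.491 to 0.584, n = 192), contained class first. With ends at or inside the annotated end the class was lower in each of the 10 bins as well. The half-life differences ran from -0.12 to 0.08 on the log2 scale over the 10 bins of all isoforms. Among ends at or inside the annotated end they ran from -0.46 to 0.09, the lowest being in leaders over 400 nt, with 44 isoforms with contained frames and 2 without an upstream AUG.

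**Figure D3:**
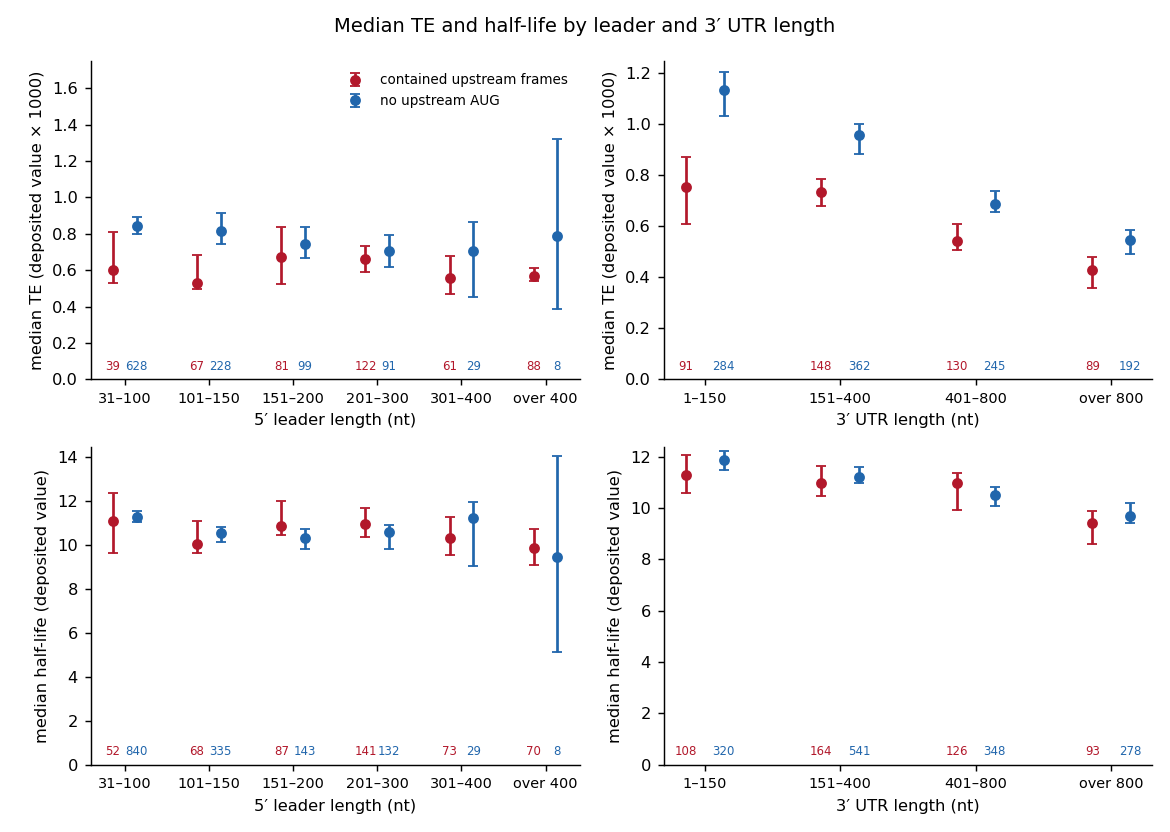
Median TE (upper row, deposited value times 1000) and median half-life (lower row, deposited value) in bins of leader length (left) and 3′ UTR length (right), with 95% order-statistic intervals and the number of isoforms under each point, for isoforms with contained frames and without an upstream AUG. The TE of the contained class is lower in each bin, with 0.752 against 1.13 for the shortest 3′ UTRs. The TE intervals are apart in all bins of 3′ UTR length but in only 1 bin of leader length, and the half-lives overlap.

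TE was ordered by the context of the upstream AUGs. Each leader was classed by the best context among all its upstream AUGs. The median TE was 0.558 (0.510 to 0.609, n = 192) where the best context was strong, 0.599 (0.548 to 0.669, n = 191) where it was adequate and 0.746 (0.630 to 0.825, n = 75) where it was weak. The strong and adequate classes overlapped, and the strong and weak classes did not. Leaders with several AUGs have more chances of a strong one, so leaders with a single upstream AUG were taken separately. There the medians were 0.554 (0.475 to 0.668, n = 74) for strong, 0.599 (0.528 to 0.712, n = 99) for adequate and 0.754 (0.659 to 0.828, n = 69) for weak, and the intervals of strong and weak overlapped slightly. With ends at or inside the annotated end the medians were 0.543, 0.549 and 0.731, and the intervals of strong (0.468 to 0.600) and weak (0.568 to 0.831) overlapped. In 23 of the 458 isoforms the first upstream AUG has no base at -3, and 15 of these were in the weak class. Without the 23, the weak median was 0.720 (0.582 to 0.820, n = 60) and the strong one 0.559 (0.511 to 0.609, n = 187), and these intervals overlapped too. Across the 458 isoforms, from the same pooled libraries, the Spearman correlation of best context with TE was -0.17, and -0.16 after both were adjusted for the lengths of the leader and the 3′ UTR. Without the 23 the unadjusted correlation was -0.14. The half-life medians of the strong, adequate and weak classes were 10.6, 10.6 and 10.8.

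More frames went with a lower TE, with a weak relation. The medians were 0.629 (0.582 to 0.702, n = 269) for 1 frame, 0.554 (0.507 to 0.676, n = 113) for 2, 0.607 (0.514 to 0.707, n = 40) for 3 and 0.488 (0.388 to 0.609, n = 36) for 4 or more. Neighbouring groups overlapped, and those with 1 and with 4 or more frames overlapped over the range 0.582 to 0.609. The Spearman correlation of the number of frames with TE was -0.12, and -0.15 after adjustment for both lengths (458 isoforms). Over the 280 isoforms with ends at or inside the annotated end it was -0.17, and -0.19 after the adjustment, close to the -0.17 and -0.19 of best context in the same isoforms. The medians there were 0.599, 0.513, 0.548 and 0.439 for 1, 2, 3 and 4 or more frames. For half-life, over all 491 isoforms, the correlation with the number of frames was -0.03. The median half-life was 10.6 for 1 frame and 9.98 for 4 or more. Counting only frames that do not overlap, the half-life correlation was -0.11, and -0.07 after adjustment for both lengths. With ends at or inside the annotated end (313 isoforms) it was -0.17, and -0.12 after the adjustment. With all frames counted it was -0.06 and 0.01 there.

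Medians of TE by the length and position of the frames followed no steady order, and those by the number of frames did not either. By the longest frame the medians were 0.629 for 1 to 5 codons, 0.550 for 6 to 10, 0.630 for 11 to 20, 0.596 for 21 to 40 and 0.530 for 41 or more (54 isoforms). The Spearman correlation was -0.12, close to that of the number of frames. By the distance of the first AUG from the cap the medians ran from 0.571 to 0.680 without order. The correlation was 0.05, and 0.09 after adjustment for both lengths. Without the 23 isoforms whose first AUG has no base at -3 it was 0.10, and 0.14 after the adjustment. In the 242 isoforms with 1 upstream AUG it was -0.07. By the distance from the last stop to the main start, the lowest median was 0.504 (0.449 to 0.585, n = 107) at 26 to 50 nt. It lay below 0.658 (0.540 to 0.721, n = 117) at 51 to 100 nt, with overlapping intervals, and below 0.662 (0.596 to 0.777, n = 86) at 101 to 200 nt, whose interval did not overlap. Stops within 10 nt of the main start gave 0.631 (47 isoforms) and those over 200 nt away gave 0.727 (28 isoforms). Leaders with overlapping frames were at 0.559 and those without at 0.602. The 24 isoforms with a frame of a lone start codon were at 0.526 and the other isoforms of the class at 0.601. Among isoforms with ends at or inside the annotated end, the median at 26 to 50 nt from the main start was 0.478 (0.428 to 0.532, n = 65) and that at 101 to 200 nt was 0.598 (0.540 to 0.738, n = 54). The correlation with TE there was -0.14 for the longest frame and 0.07 for the position of the first AUG. For half-life, the correlation was -0.01 for the longest frame, 0.01 for the position of the first AUG and 0.06 for the distance to the main start (491 isoforms).

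Of the features outside the frames, the length of the 3′ UTR had the closest relation to TE within the class. The Spearman correlation with TE was -0.42 for the length of the 3′ UTR and -0.25 for the GC content of the leader, and from the lowest to the highest quartile of leader GC the medians were 0.702, 0.601, 0.600 and 0.474. With half-life, the correlation was -0.22 for the 3′ UTR length and 0.30 for coverage, which is summed over all decay times. Restricted to ends at or inside the annotated end, these 4 correlations were -0.39, -0.23, -0.20 and 0.32. After adjustment for both lengths, the correlation of leader GC with TE was -0.19, and -0.17 with ends at or inside the annotated end. These lay close to the adjusted correlations of the number of frames and of best context. Among the 202 isoforms used in both tables, the correlation of TE with half-life was 0.18 (also 0.18 for the 130 with ends at or inside the annotated end), and among 588 annotated isoforms without an upstream AUG it was 0.31.

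**Figure D4:**
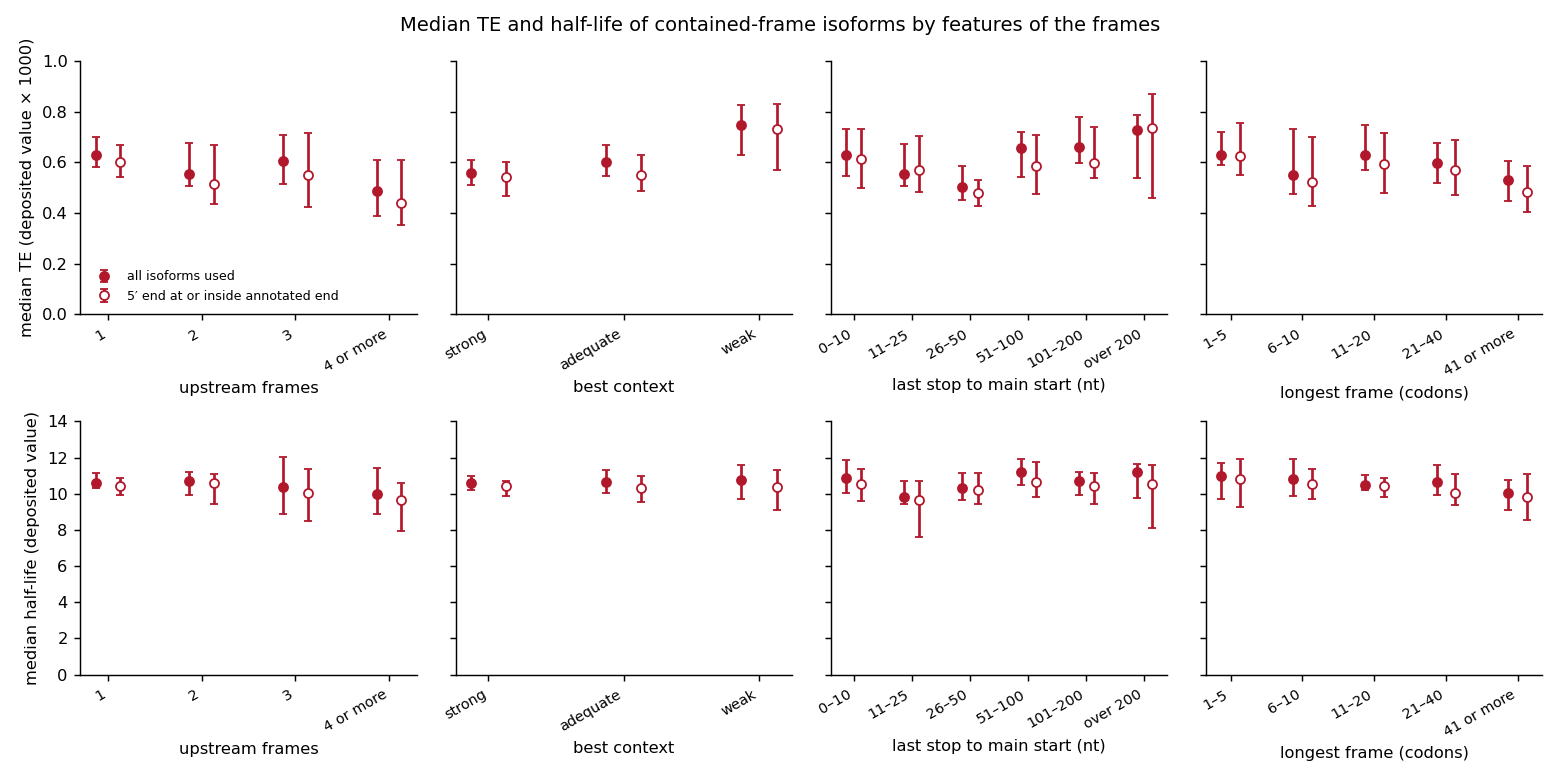
Median TE (upper row, deposited value times 1000) and median half-life (lower row, deposited value) of isoforms with contained frames, by the number of frames, the best context, the distance from the last stop to the main start and the longest frame. Bars are 95% order-statistic intervals, filled points are all isoforms used and open points those with the 5′ end at or inside the annotated end. TE is highest for leaders with weak contexts (0.746) and the half-life medians of all isoforms used run from 9.83 to 11.2.

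The isoforms with the deepest coverage show what the medians hide. Among the unnamed ones, chr7:12656245-12660612 (GRCm39, plus strand, coverage 6118 and 14497) had a 232 nt leader with 1 frame of 14 codons, a TE of 0.924 and a half-life of 12.6. The next, chr2:90866051-90876074, had a frame of 3 codons, a TE of 0.599 and a half-life of 12.0, and an isoform of the same locus that begins 79 nt further upstream had the same frame, a TE of 0.629 and a half-life of 10.6. The named isoforms described next have the 5′ end at or inside the annotated end. All positions given below are those of the deposited tables, and each frame lies in the 5′ UTR.

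Several named isoforms encode mitochondrial proteins. Mrpl37, a protein of the large mitochondrial ribosomal subunit (chr4:106913080-106924053, minus strand), has a leader of 61 nt with a strong-context frame of 5 codons. Its TE was 0.602 and its half-life 12.4, at a coverage of 1347 and 1925. Mrps21, of the small mitochondrial subunit, has a leader of 71 nt with an adequate-context frame of 3 codons, a TE of 1.27 and a half-life of 14.3. Fis1, a mitochondrial fission factor of the outer membrane, has a leader of 78 nt with a strong-context frame of 6 codons. Its TE of 0.944 lay above the class median, as that of Mrps21 did. Tbrg4, a regulator of mitochondrial RNA, has 2 nested frames, of 49 codons and of a lone start codon, a TE of 0.415 and a half-life of 11.1. Short leaders with 1 frame near the main start thus covered TE values on both sides of the median of isoforms without an upstream AUG.

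Other named isoforms encode membrane proteins of different kinds. Cacnb1, the beta subunit of the calcium channel that triggers contraction (chr11:97895752-97913435, minus strand, coverage 1658 and 1048), has a weak-context frame of 2 codons in a leader of 184 nt. Its TE was 0.431, below the class median, and its half-life was 12.0. Popdc2, a cyclic AMP binding membrane protein of striated muscle, has 4 frames in 442 nt, a TE of 0.301 and a half-life of 9.98. Tspan4, a tetraspanin of the cell membrane, begins at the AUG of its 35-codon frame and had a TE of 1.05. Nectin2, an adhesion molecule of cell junctions, also begins at an upstream AUG and had a TE of 0.736.

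Low and high TE values came from leaders of different kinds. Traf7, a ubiquitin ligase, has a 26-codon frame that stops 3 nt before the main start, and its TE was 0.246. Ncaph2, a subunit of condensin II, has 2 strong-context frames in a leader of 84 nt, a 3′ UTR of 1375 nt and a TE of 0.279. Hyal2, a hyaluronidase at the cell surface, has a strong-context frame of 16 codons, a TE of 0.299 and a half-life of 3.81, with a coverage of 1702 in the polysome table and 111 in the decay table. At the other end, Emp3, a small membrane protein, had a TE of 2.69 with 2 frames of adequate and strong context, and a 3′ UTR of 38 nt. Ntmt1, which methylates protein N-termini, had a TE of 1.58 with 3 frames, the last stopping 4 nt before the main start.

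Among half-lives, the named isoforms with coverage of at least 300 ran from 7.55 to 17.8. The shortest belonged to Rbm38, an RNA-binding protein (7.55), Myh3, the embryonic myosin heavy chain (7.60), and Klhdc3, a substrate adaptor of a ubiquitin ligase (7.94). The TE of these 3 was 0.513, 0.475 and 0.515. The longest belonged to Cav3, the muscle caveolin, with 17.8 and a TE of 0.722, and Bad, a promoter of apoptosis, had 16.4 and 0.731. Other isoforms with a TE below the class median were those of Map7d1, a microtubule-associated protein (0.393), Ppp2r5b, a regulatory subunit of phosphatase 2A (0.373, with 3 frames in 600 nt), Tmc6, a transmembrane channel-like protein (0.416), Abcb6, an ABC transporter (0.428), and Ehbp1l1, which binds an endocytosis protein (0.543). Above it lay Ypel3 (0.995), Haghl (1.16), Slc39a7, a zinc transporter (0.675), Gmppa, which takes part in GDP-mannose metabolism (0.705), and Hspbp1, a co-chaperone of HSP70 (1.12).

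Of the isoforms used in both tables, those with the most frames had TE values below the class median. An isoform at chr17:26042626-26047698 has 9 frames in 554 nt, with a TE of 0.455 and a half-life of 10.5. One at chr3:88816951-88821198 has 15 AUGs in 9 frames over 1016 nt, with a TE of 0.414 and a half-life of 7.18. The longest frames in isoforms passing the coverage minimum in both tables, 133 codons in Crip2 and 82 in Stub1, lie in leaders that begin 94 and 17 nt upstream of the annotated end, and that of Crip2 carries its first bases 3 times more.

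Of a list of 30 muscle genes, 18 were named in each table, and 5 had an isoform of the class in the polysome table and 3 in the decay table. For scale, the class made up 25.4% and 21.6% of all annotated nuclear isoforms with a leader over 30 nt, a share of isoforms and not of genes. Myh3 (chr11:66969126-66993110, plus strand) begins at its upstream AUG, the first base of an 88 nt leader, with a frame of 24 codons, and its coverage was 170 in the polysome table and 1342 in the decay table. Cav3 had an isoform with 212 nt of leader and 2 frames, with a TE of 0.722, and a longer one of 325 nt and 4 frames, whose end lies 18 nt upstream of the annotated end, with a TE of 0.644 and a half-life of 13.55. Tnni1, slow skeletal troponin I, had a TE of 0.615 and a half-life of 10.6 in the isoform with the deepest coverage, which begins 16 nt upstream of the annotated end and repeats its first bases once. Mef2d, a muscle transcription factor, had a TE of 0.489 at a coverage of 52, with the same kind of repeat. Myog, the myogenic factor myogenin, had 3 frames, a TE of 0.397 and a coverage of 24, below the minimum. Of 27 genes listed for upstream frames described elsewhere, 2 and 3 were named in the tables and none had an isoform of the class.

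Pairs from 1 locus hold the gene constant. In 50 loci of the polysome table an isoform with contained frames could be set against an isoform without an upstream AUG. Both had the same 3′ end and 3′ UTR and the same bases, up to 20, before the main start codon. Unlike in the comparisons above, the partner could be of any annotation class and leader length. The partners of Cav3, Asb2 and Vamp8, for example, were classed as new start sites. In 42 of the 50 pairs the partner's leader was the end part of the longer one (nested), as in all background pairs below. The median log2 difference in TE, contained over partner, was -0.30 (-0.50 to -0.20), with an SD of 0.57 over loci, and 40 of 50 were below 0. With both ends at or inside the annotated end it was -0.33 (-0.53 to -0.06) over 28 loci, 21 of them below 0. As background, pairs in which neither isoform had an upstream AUG and the leader was at least 20 nt longer gave -0.09 (-0.17 to 0.01), longer over shorter, with 111 of 197 below 0. For an added length in the middle range of the pairs (73.5 to 221.25 nt), the values were -0.36 (-0.67 to -0.10, n = 20) with contained frames and -0.18 (-0.29 to 0.05, n = 58) with no AUG in either, and the intervals overlapped. Pairs with 2 or more frames were at -0.50 (-1.01 to -0.06, n = 15) and those with 1 at -0.25 (-0.44 to -0.14, n = 35). These intervals overlapped, and the median added length was 207 nt in the former and 95 nt in the latter. By best context the medians were -0.27 (-0.59 to 0.23, n = 13) for strong, -0.30 (-0.57 to -0.17, n = 24) for adequate and -0.39 (-0.74 to -0.04, n = 13) for weak. The order seen across loci did not appear in these medians, but the intervals are too wide to show it absent.

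Aldoa, the glycolytic aldolase of muscle, had the pair with the deepest coverage. The isoform with a weak-context frame (chr7:126394407-126399609, minus strand, leader 171 nt, coverage 2222) had a TE of 0.759, against 0.996 for the isoform without an upstream AUG (leader 66 nt, coverage 3738). These leaders are not nested. For Cav3 the values were 0.722 with 2 frames and 0.985 without an upstream AUG (coverage 474 and 4382). For Hspbp1 they were 1.12 with a strong-context frame and 1.53 without an upstream AUG. Mt1, the metal-binding metallothionein, had 0.417 and 0.428, a difference within the spread of near-identical isoforms. Asb2, a ubiquitin ligase component of muscle, had 0.324 with the frame and 0.471 without, and Vamp8, a vesicle fusion protein, had 0.911 and 1.19. Mylpf, the fast myosin light chain, had 1.16 for its isoform with a frame, which is rare (coverage 70), and 1.36 for the main one (coverage 8097), again within that spread. Emp3 ran the other way, with 2.69 for the contained-frame isoform and 1.53 for a partner with a leader of 1 nt and a coverage of 48, and Ptpa, an activator of phosphatase 2A, did so with 0.848 and 0.589.

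Half-life differences within loci were of both signs. In 50 loci the log2 difference had a median of 0.07 (-0.11 to 0.17), with 21 below 0, and with both ends at or inside the annotated end it was 0.00 (-0.22 to 0.45) over 31 loci, with 15 below 0. Pairs without an upstream AUG in either isoform were at 0.00 (248 loci, 125 below 0). For an added length in the middle range, 79.5 to 221.5 nt here, the median was 0.10 (0.05 to 0.45, n = 20) with contained frames, an interval above 0 with 5 of 20 below 0, and -0.02 (-0.19 to 0.05, n = 82) with no AUG in either. The half-life was 17.8 with frames and 11.8 without for Cav3, and 10.5 for both isoforms of Hspbp1. For Aldoa the pair in the decay table has another contained-frame isoform than the TE pair (chr7:126394407-126398415, leader 220 nt), with a half-life of 10.4, against 11.7 for the isoform without an upstream AUG. Ufc1, an enzyme that attaches the modifier UFM1, had 54.8 and 22.8, at a coverage of 155 and 312. In the 15 loci that gave the same isoform pair in both tables, 13 contained-frame isoforms had the lower TE (median log2 difference -0.53) and 7 had the shorter half-life.

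**Figure D5:**
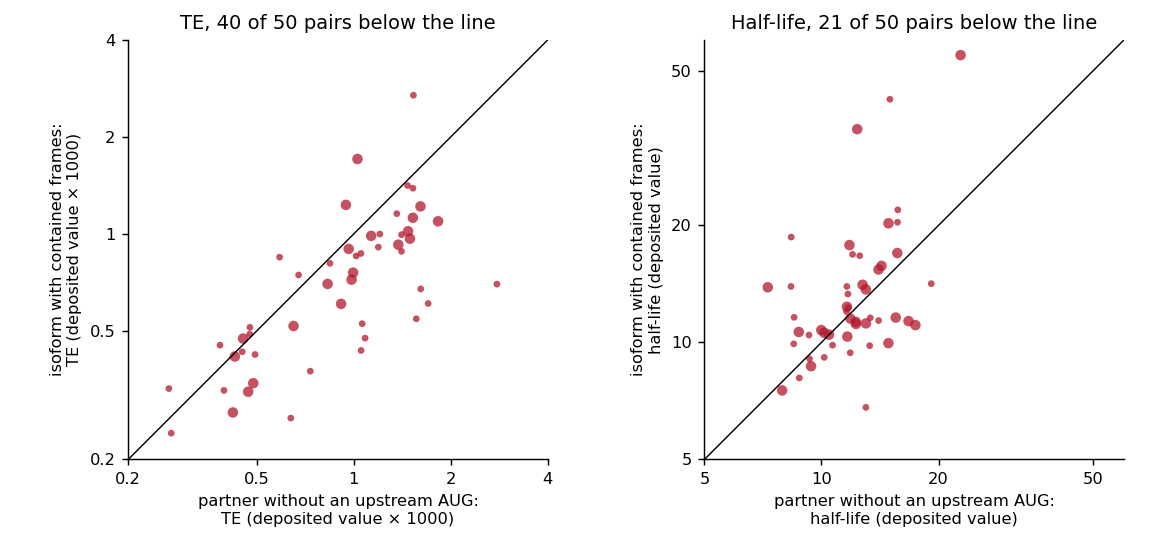
TE (left, deposited value times 1000) and half-life (right, deposited value) of the isoform with contained frames (vertical axis) against the isoform of the same locus without an upstream AUG (horizontal axis), 50 loci each, on log axes. Large points have a coverage of at least 100 in both isoforms, and the line marks equal values. For TE 40 of 50 points lie below the line, and for half-life 21 of 50 do.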

How the data were processed

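TIF-seq2 isoforms were measured in 6 polysome and 12 decay libraries. Per the submitters' processing notes, bcl2fastq 2.20.0, cutadapt 1.16, UMI-tools 0.5.4, STAR 2.5.3a and build GRCm39 were used. The authors deposited, per isoform, a whole-number coverage count summed over libraries and a score, the TE or the half-life. The sources used here do not give the formulas of TE and half-life. There were 0 columns of single libraries, so the planned tests across mice could not be run and depth per library is unknown. The smallest coverage listed was 11 (polysome) and 21 (decay).

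Frames were found in the deposited leaders with Python 3.11.15, pandas 2.3.3, numpy 2.4.6 and scipy 1.17.1, and figures were drawn with matplotlib 3.10.9. The search was tested on simulated data. Medians have exact binomial order-statistic intervals, for the 95% level, which cover the spread over isoforms only.

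The members and lists were chosen with earlier results of these data known. Named by rule were the isoforms with the highest coverage, the most and the longest frames, the lowest and highest values at a coverage of at least 300, and the listed muscle genes. Symbols came from an exact match of the first 30 nt of a leader to a RefSeq promoter window (GRCm38.p6) of 1 gene on the same chromosome (430 isoforms). Matches of 20 nt (82) and of another isoform of the locus (174) were added after values had been seen. So were 27 named isoforms with coverage of at least 200 in both tables and the 5′ end at or inside the annotated end. Alternatives tried were other coverage minimums, lengths, contexts and pair rules.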

Additional observations from a re-analysis of the deposited data

How the results depend on the processing

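Across 14 results and 134 alternatives, 36 of them chosen after seeing the data, 133 values lay within the interval of the reported value and none changed sign with an interval away from 0. These intervals came from Fisher's z for correlations and from the intervals of both medians for differences between classes, with isoforms taken as independent. Where the interval held 0, signs did change. For half-life, the sign was kept in 5 of 11 alternatives for context and 5 of 9 for the first AUG. The log2 TE difference between isoforms with contained frames and those without an upstream AUG (-0.43) ran from -0.48, with ends at or inside the annotated end, to -0.34, averaged over length bins. The pair difference in TE (-0.30) ran from -0.45 to -0.26, and that between strong and weak contexts (-0.42) from -0.45 to -0.36. The half-life difference (-0.03) became -0.11 when only isoforms used in both tables were kept, and the cause was not tested. No paired analysis was possible because there were 0 columns for a single library, and for the same reason no replicate could be left out. Coverage is pooled, so the precision of a single TE or half-life is unknown, and leaders, above all those that begin upstream of the annotated end, can hold repeated bases.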
